A study of Mus musculus with 12 samples.

Results

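Apelin and 4 other genes linked to growing vessels, some of them to the sprouting tip, were followed in tumour-bearing islets. The genes were Apln, its receptor gene Aplnr, Esm1, Cd34 and Plvap. They are 5 of the 19938 mouse genes measured, taken by symbol and each read by 1 transcript cluster, the group of probes that reports 1 gene on the array. The samples were 12 Affymetrix gene arrays of total RNA, 6 from pools of angiogenic islets and 6 from pools of non angiogenic islets. Both groups came from Rip1Tag2 mice aged 8 weeks on a C57BL/6 background, labelled as early tumor islets. In this strain the rat insulin promoter drives the SV40 T antigen in beta cells, so every islet of both groups carried the oncogene and no islet without it was measured. Islets were freed with collagenase, purified on a density gradient and assigned to a group by their appearance. Whole islets were pooled, and the number of mice and islets in a pool is not given in the sources used here. The labels do not say whether each array was a separate pool. The p-values below therefore measure the spread between arrays, whose pools may share animals or be the same. Below, a pool stands for the islets read on 1 array.

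During sprouting, an endothelial tip cell leads the new vessel along a VEGF gradient while stalk cells behind it divide and form the lumen, and Notch signalling between neighbours holds most cells out of the tip state. Apelin is a secreted peptide made by tip cells, and its G protein-coupled receptor is found on endothelial cells of the stalk and of veins. Esm1 encodes endocan, a secreted dermatan sulphate proteoglycan induced by VEGF. Cd34 encodes a sialomucin of the cell surface that is found on endothelial cells and filopodia of tip cells, and also on blood progenitors and on many fibroblasts. Plvap encodes the protein of the diaphragms that close fenestrae and caveolae, and islet capillaries are richly fenestrated.

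Values are log2 intensities after RMA, so a difference of 1 is a doubling of signal, and levels of different genes cannot be set against each other. Array medians lay between 7.30 and 7.38. Replicates 1 to 3 and 4 to 6 stood apart in the data in both groups. With group in the model, 18.0% of genes were higher and 18.8% lower in replicates 4 to 6, and the labels do not say what the sets are, so the results of the 5 genes, and the medians of the main lists, are also given within them. Ins2, the insulin gene of the labelled tissue, averaged 13.21 in angiogenic pools and 13.22 in non angiogenic pools. Exocrine markers varied widely: the mean of 12 measured acinar markers was 7.82 to 10.8 in angiogenic pools and 7.70 to 11.9 in non angiogenic pools. None of the 12 passed the test, the largest difference being 0.73 for Cpa1 (adjusted p = 0.790), with a median difference of 0.39 over all arrays, 1.03 in replicates 1 to 3 and -0.14 in replicates 4 to 6. The part of acinar RNA in the results below was not tested.

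The 250 bases before the annotated start were available for Apln, Esm1 and Cd34 in the RefSeq table of GRCm38.p6, and they are shown because endothelial genes are commonly read by ETS family factors, whose core is GGAA. Capitals mark GGAA or its reverse complement TTCC, in the direction of the gene, 5′ to 3′. The window of Apln is chrX:48034854-48035103, minus strand, that of Esm1 is chr13:113209409-113209658, plus strand, and that of Cd34 is chr1:194938571-194938820, plus strand.
Apln: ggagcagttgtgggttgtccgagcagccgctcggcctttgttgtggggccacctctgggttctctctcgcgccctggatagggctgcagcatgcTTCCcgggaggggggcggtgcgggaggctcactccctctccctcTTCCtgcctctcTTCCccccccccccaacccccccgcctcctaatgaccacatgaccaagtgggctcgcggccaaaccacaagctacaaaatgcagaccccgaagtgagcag
Esm1: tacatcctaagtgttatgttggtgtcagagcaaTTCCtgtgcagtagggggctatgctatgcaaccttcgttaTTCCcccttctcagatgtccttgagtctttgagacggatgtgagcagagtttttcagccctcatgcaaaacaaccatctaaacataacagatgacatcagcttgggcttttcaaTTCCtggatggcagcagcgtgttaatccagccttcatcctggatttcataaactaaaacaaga
Cd34: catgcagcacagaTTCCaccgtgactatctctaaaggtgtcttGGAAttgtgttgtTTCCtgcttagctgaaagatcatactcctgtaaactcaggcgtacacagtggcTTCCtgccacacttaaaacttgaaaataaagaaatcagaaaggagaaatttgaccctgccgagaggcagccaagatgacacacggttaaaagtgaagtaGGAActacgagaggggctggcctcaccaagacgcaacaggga
The core occurred 3 times before Apln, 3 times before Esm1 and 5 times before Cd34, on both strands together. It was also found in 93.4% of 32851 promoter windows of the same length, with a median of 3, so its presence does not set these genes apart. The hypoxia response core ACGTG, searched on both strands, was absent from all 3 windows and present in 16.6% of all windows. The E-box CANNTG occurred 3 times before Apln, 2 times before Esm1 and not before Cd34, against 66.2% of all windows with at least 1. These matches describe letters and not binding.

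Apln, Aplnr, Cd34 and Plvap were higher in angiogenic islets, and Esm1 did not pass the test. The 4 calls stand beside a background of 3.55% of all genes called higher (limma, 6 against 6 arrays, Benjamini-Hochberg adjusted over 19938 genes at 0.05), and the median difference of all genes was -0.021. Arrays of the groups did not overlap for Apln, Aplnr and Cd34, as was so for 2.85% of all genes in that direction. Differences ran between 0.20 for Esm1 and 0.79 for Cd34.

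**Figure D1:**
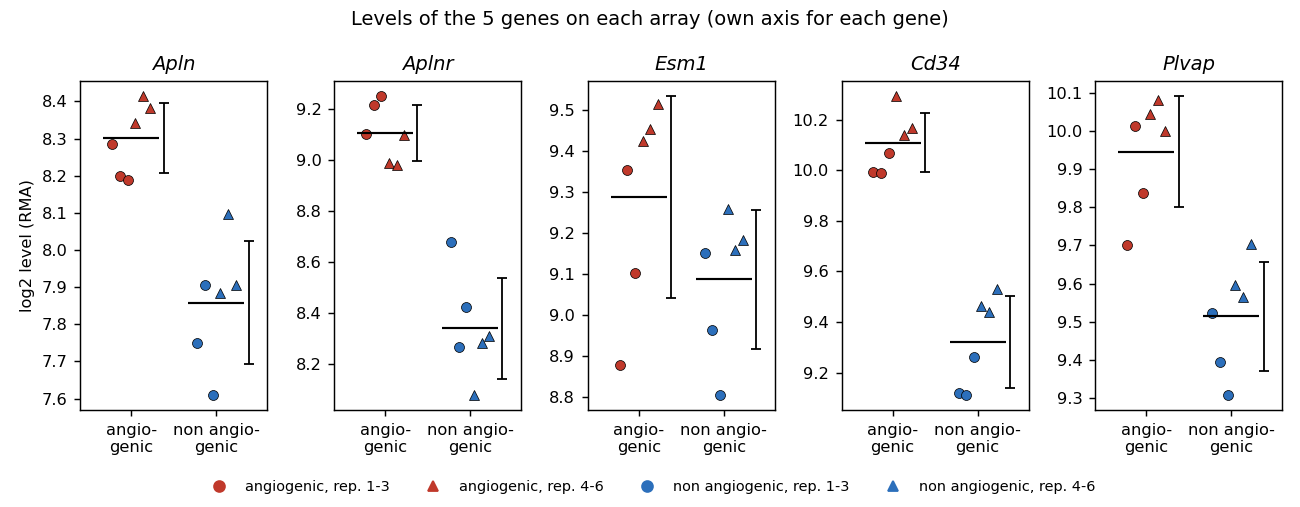
Levels of the 5 genes on the 12 arrays, as log2 RMA intensity on the vertical axis, with angiogenic pools left of non angiogenic pools a line at each group's mean and error bars of 1 SD (n = 6 each); circles are replicates 1 to 3 and triangles replicates 4 to 6. The groups are separate for Apln, Aplnr and Cd34, touch for Plvap at 9.70 and overlap for Esm1.

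Apln, the ligand, had log2 levels with a lowest of 8.19, a median of 8.31 and a highest of 8.41 in angiogenic pools, against 7.61, 7.89 and 8.10 in non angiogenic pools. Every angiogenic pool lay above every non angiogenic pool. The means were 8.30 ± 0.094 in angiogenic pools and 7.86 ± 0.16 in non angiogenic pools (SD, n = 6 each), a log2 difference of 0.44 with a 95% interval of 0.29 to 0.60, or 1.36-fold (limma, adjusted p = 0.00201).

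Aplnr, the receptor gene, moved further. Its lowest, median and highest log2 levels were 8.98, 9.10 and 9.25 in angiogenic pools, against 8.08, 8.30 and 8.68 in non angiogenic pools, with no overlap. The log2 difference was 0.76 with a 95% interval of 0.58 to 0.95, or 1.70-fold (limma, adjusted p = 6.80e-05). Whether the ligand and the receptor gene differed in the size of their change was not tested.

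Cd34 was read at 9.99, 10.10 and 10.29 as lowest, median and highest log2 level in angiogenic pools, against 9.11, 9.35 and 9.53 in non angiogenic pools. The groups lay 0.46 apart at their nearest arrays. The difference was 0.79 with a 95% interval of 0.61 to 0.96 on the log2 scale, or 1.73-fold (limma, adjusted p = 3.45e-05). The study shows Cd34 as a marker from these same arrays, so its direction is no independent evidence. The same holds for other genes named below that the study lists as raised on them. Among these are Pecam1, Cdh5, Tek, Pdgfrb, Rgs5, Adgre1, Col1a1, Nid1, Lama4 and Plxnd1.

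Plvap reached 9.70, 10.01 and 10.08 as lowest, median and highest log2 level in angiogenic pools, against 9.31, 9.54 and 9.70 in non angiogenic pools. Replicate 1 of the angiogenic pools and replicate 6 of the non angiogenic pools met at the same rounded value, and the rest were apart. The log2 difference was 0.43 with a 95% interval of 0.26 to 0.60, or 1.35-fold (limma, adjusted p = 0.00394).

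Esm1 had lowest, median and highest log2 levels of 8.88, 9.39 and 9.51 in angiogenic pools, against 8.80, 9.15 and 9.26 in non angiogenic pools. Replicate 1 of the angiogenic pools, at 8.88, was below 5 of the 6 non angiogenic pools. The difference was 0.20 with a 95% interval of -0.031 to 0.43, or 1.15-fold with an interval of 0.979 to 1.35 (limma, adjusted p = 0.447). The interval spans 0 and ends just below the 0.44 measured for Apln.

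Within the sets of arrays, the 4 genes were called in each. In replicates 1 to 3, where 2.37% of genes were called higher, log2 differences were 0.47 for Apln, 0.73 for Aplnr, 0.85 for Cd34 and 0.44 for Plvap (limma, adjusted p between 2.29e-04 and 0.0357). In replicates 4 to 6, where 3.11% were called higher, they were 0.42 for Apln, 0.80 for Aplnr, 0.72 for Cd34 and 0.42 for Plvap (limma, adjusted p between 6.58e-04 and 0.0130). The 3 angiogenic and 3 non angiogenic arrays did not overlap for any of these 4 genes in either set. The share of all genes without overlap at 3 against 3 arrays was not counted. Such separation is easier to reach than with all arrays.

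Esm1 passed in replicates 4 to 6 alone, with a difference of 0.26 (limma, adjusted p = 0.0451), and not in replicates 1 to 3, with 0.14 (adjusted p = 0.611). The difference between the sets' effects was 0.12 ± 0.15 (SE) for Esm1 (limma interaction, adjusted p = 0.888), so the sets were not shown to differ. None of the 5 genes had an interaction past the threshold, nor did nearly any gene, with 0.00502% of genes called and 1278 genes at an unadjusted p under 0.05. With the set as a block, 5.88% of all genes were called higher, and the same 4 genes were called, with Esm1 at an adjusted p of 0.120 (limma).

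Levels also differed between the sets. Apln, Esm1, Cd34 and Plvap were higher in replicates 4 to 6 by 0.18 to 0.29, while Aplnr was lower, with a difference of -0.20 (limma with group in the model, adjusted p between 0.00132 and 0.0288). The receptor gene thus ran against the other 4 between sets and with 3 of them between groups.

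**Figure D2:**
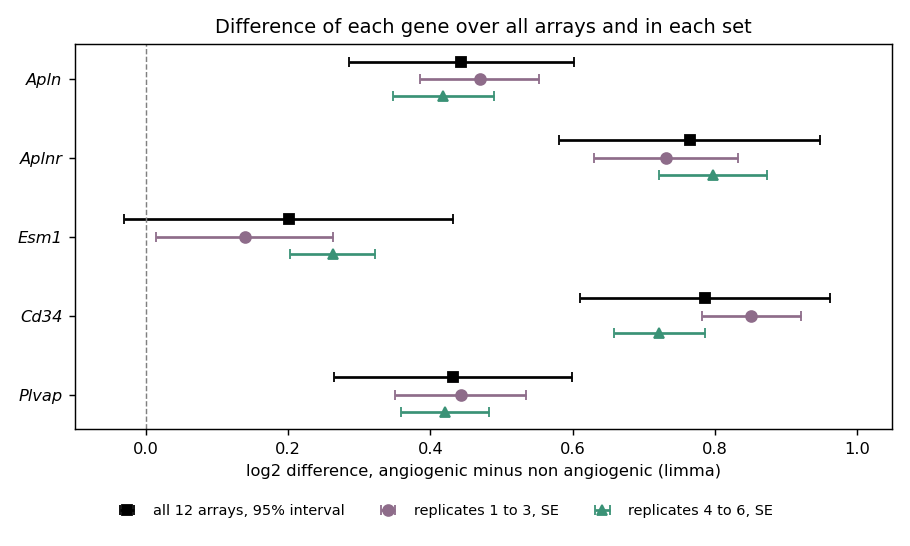
Log2 difference of each gene, angiogenic minus non angiogenic, over all 12 arrays with its 95% interval (squares) and within replicates 1 to 3 (circles) and 4 to 6 (triangles) with standard errors. Apln, Aplnr, Cd34 and Plvap lie above 0 in each set, and the interval of Esm1 over all arrays, -0.031 to 0.43, spans 0.

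Endothelial genes as a whole were higher too. Of 16 markers of all endothelial cells, 11 were called higher and 0 lower, with a median difference of 0.35 (0.30 in replicates 1 to 3 and 0.40 in replicates 4 to 6), and all 16 were positive. Cdh5, which encodes VE-cadherin, differed by 0.76 or 1.70-fold, Pecam1, the platelet endothelial adhesion molecule, by 0.58, Ptprb, the endothelial phosphatase VE-PTP, by 0.56 and Myct1 by 0.53. Their mean was 8.66 to 8.85 in angiogenic pools and 8.33 to 8.50 in non angiogenic pools. In whole islets, more endothelial cells and more RNA of a gene per endothelial cell cannot be told apart.

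Each gene was also set against the mean of these 16 markers on the same array, which does not separate cell number from RNA per cell either. The mean itself differed by 0.37, and the 16 markers by 0.046 for Icam2 to 0.76 for Cdh5. A gene can thus change by more than that mean as a general marker such as Cdh5 does. Cd34 minus that mean was 1.13 to 1.45 in angiogenic pools and 0.64 to 1.11 in non angiogenic pools, a difference of 0.42 with no overlap. Its exact permutation p was 0.00216, the smallest that 924 splits allow, or 0.0108 adjusted over the 5 genes. Aplnr minus the mean differed by 0.40, with 0.14 to 0.52 in angiogenic pools and -0.28 to 0.20 in non angiogenic pools (exact permutation p = 0.00433, adjusted p = 0.0108). Both changed by more than the marker mean in each set, by 0.51 and 0.33 for Cd34 and by 0.39 and 0.41 for Aplnr.

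Apln minus the marker mean differed by 0.077 (exact permutation p = 0.405), Plvap by 0.066 (exact p = 0.344) and Esm1 by -0.17 (exact p = 0.143). These 3 were not shown to change by more or less than the markers. The yardstick matters: against the mean of Pecam1 and Cdh5 alone, the markers with the largest differences, the values were 0.092 for Aplnr, 0.11 for Cd34, -0.23 for Apln, -0.24 for Plvap and -0.47 for Esm1, and only that of Esm1 passed (exact permutation, adjusted p = 0.0325).

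**Figure D3:**
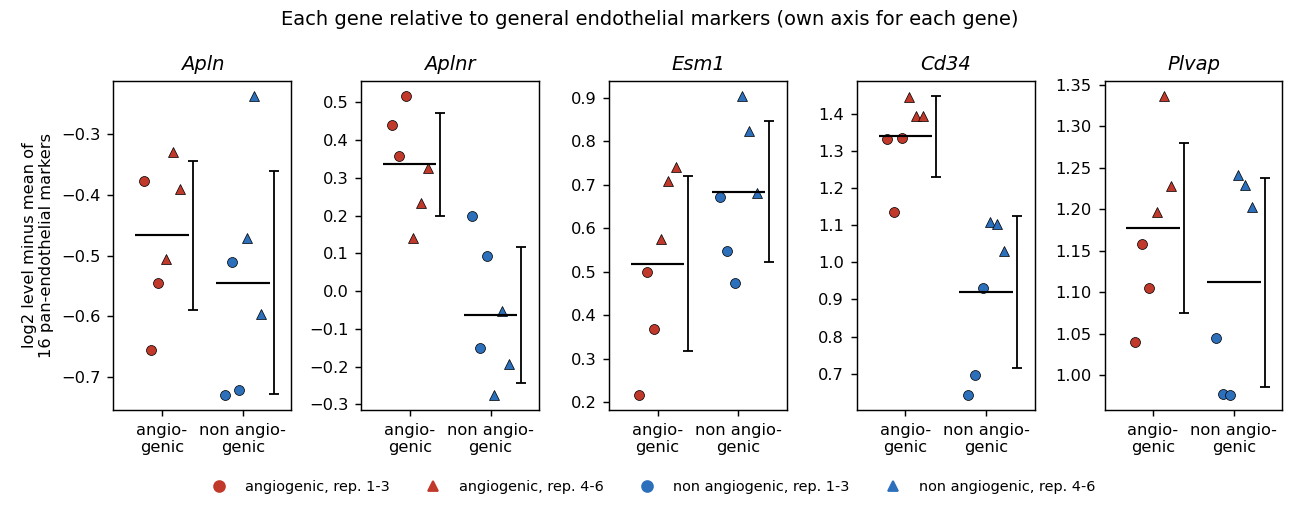
Log2 level of each gene minus the mean of 16 pan-endothelial markers on the same array, with angiogenic pools left of non angiogenic pools, 1 point per array (circles for replicates 1 to 3, triangles for 4 to 6), a line at the group mean and error bars of 1 SD. Cd34 is separate between groups (1.13 to 1.45 in angiogenic pools, 0.64 to 1.11 in non angiogenic pools), Aplnr overlaps in part, and Apln, Esm1 and Plvap overlap widely.

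Since fibroblasts can carry Cd34, their markers were read as well. Of 9 measured fibroblast markers, 6 were higher and 0 lower, with a median difference of 0.77 (1.01 in replicates 1 to 3 and 0.63 in replicates 4 to 6), among them Col1a1 at 1.56 or 2.95-fold, Mfap5 at 1.52 and Col1a2 at 1.47. Dcn at 0.73, Pi16 at 0.27 and Clec3b at 0.075 did not pass (limma, adjusted p between 0.0799 and 0.689). The mean of the 9 markers was 8.63 to 8.96 in angiogenic pools and 7.66 to 8.04 in non angiogenic pools. Cd34 minus this mean was 1.29 ± 0.097 in angiogenic pools and 1.43 ± 0.036 in non angiogenic pools (SD, n = 6 each), a difference of -0.14 (exact permutation p = 0.00866). The size depends on how the markers are summarised. Against the median marker of each array, a summary chosen after seeing the data, the difference was -0.67. That marker can be a different gene on each array, so this value also compares levels of different genes. The 9 fibroblast marker differences ran from 0.075 to 1.56. The 0.79 of Cd34 itself lay close to their median of 0.77 and also to the 0.76 of endothelial Cdh5. Which cells carried the Cd34 RNA was not tested. Of 9 mast cell and progenitor markers, 0 passed, the largest difference being -0.12 for Cma1, with list means of 5.78 to 5.86 in angiogenic pools and 5.70 to 5.94 in non angiogenic pools. These list means lay below the array medians, where RMA compresses differences, so a change could have been missed. Of 8 pericyte markers 5 were higher, led by Pdgfrb at 1.08 and Rgs5 at 0.80, and of 10 macrophage markers 6 were higher, led by Adgre1 at 0.65 and Mrc1 at 0.60. The part of these cells in the results was not tested.

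Other genes of the apelin pathway mostly stayed below the threshold. Of 4 measured genes for the second ligand and for enzymes that cut the ligands, 0 passed: Apela, which encodes the second ligand, differed by -0.0087, Furin, a proprotein convertase, by 0.022, Mme, the peptidase neprilysin, by 0.038 and Pcsk5, another convertase, by 0.20 (limma, adjusted p = 0.117). Apela averaged 4.34 in angiogenic pools and 4.35 in non angiogenic pools, and Mme 4.96 and 4.92. Both lay well below the array medians of 7.30 to 7.38, where RMA compresses differences, so a change could have been missed. Of 7 genes that couple the receptor to the cell, 1 passed. It was Arrb1, encoding beta-arrestin 1, with a difference of 0.45 or 1.37-fold (limma, adjusted p = 8.98e-04), while its relative Arrb2 differed by -0.012 and the 5 G protein alpha subunit genes by -0.092 to 0.092.

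Of 11 genes known to regulate apelin signalling or to follow it, 4 were higher and 0 lower. Nr2f2, encoding the venous factor COUP-TFII, differed by 0.42, Mef2c by 0.36, Epas1, encoding the hypoxia-inducible factor HIF-2 alpha, by 0.35 and Gja4, a connexin gene, by 0.24 (limma, adjusted p between 0.00168 and 0.0333). The median over the 11 was 0.10, and 7 of the 11 differences were positive. Foxo1 at -0.085, Hdac4 at -0.012, Hdac5 at -0.20 and Klf2 at -0.024 went the other way without passing. Under the set block, 5 of the 11 were higher and 1 was lower. The lower gene was Hdac5 (limma, adjusted p = 0.00513, against 0.414 without a block).

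A separate list of tip cell genes rose in part. Of 16, 10 were higher and 0 lower, all 16 were positive and the median was 0.40 (replicates 1 to 3 gave 0.30 and replicates 4 to 6 gave 0.43), beside the 0.35 of the pan-endothelial markers. Nid1, encoding the basement membrane protein nidogen 1, differed by 0.99 or 1.98-fold (limma, adjusted p = 1.60e-06). Lama4, a laminin chain gene, differed by 0.90, Plxnd1, a semaphorin receptor gene, by 0.79 and Unc5b, a netrin receptor gene, by 0.53. Nid1 and Lama4 products are parts of basement membranes that other cells also make. Of 12 stalk and Notch-responsive genes, 4 were higher and 0 lower with a median of 0.25: Jag1, a Notch ligand gene, at 0.67 or 1.59-fold, Tek, the angiopoietin receptor gene, at 0.62, Tie1, also among the endothelial markers, at 0.36 and Notch4 at 0.27. All 12 were positive, but Hey1 at 0.26, Nrarp at 0.21, Hey2 at 0.21 and Hes1 at 0.18 did not pass (limma, adjusted p between 0.0673 and 0.408). The study also counts Tek among macrophage markers. Tip and stalk lists were not tested against each other.

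**Figure D4:**
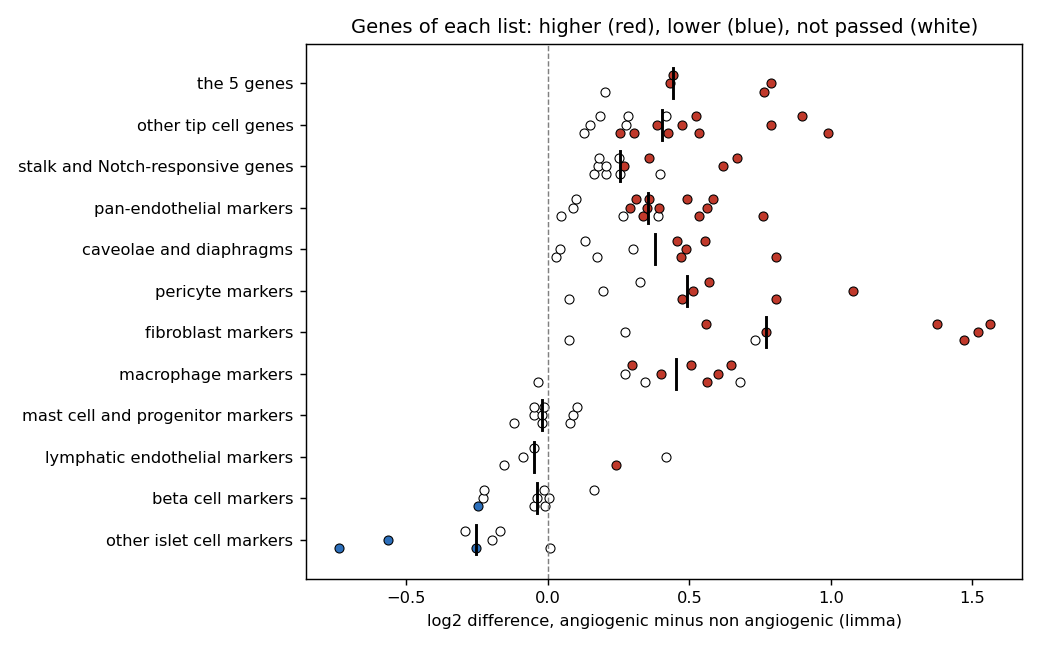
Log2 difference, angiogenic minus non angiogenic, of every measured gene of each list, 1 point per gene, in red where higher, blue where lower and white where the limma threshold was not passed, and a black bar at the list's median. The medians of tip cell genes (0.40) and pan-endothelial markers (0.35) lie close together, and that of fibroblast markers (0.77) lies higher.

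The relatives and partners of Cd34, Plvap and Esm1 moved unevenly. Podxl, a sialomucin of the same family as Cd34, was higher by 0.31 or 1.24-fold (limma, adjusted p = 0.0124), and Podxl2, the third member, was lower, with a difference of -0.25 (adjusted p = 0.0139), with no overlap of the groups for either. Of 6 measured genes for selectins, other sialomucins and the sulfotransferases that modify them, Emcn, also one of the 16 endothelial markers, alone passed, at 0.29, and Sele, the E-selectin gene, differed by 0.21 (adjusted p = 0.151). Of 10 genes of caveolae and diaphragms, 5 were higher and 0 lower with a median of 0.38: Ehd2, encoding an ATPase at the caveolar neck, at 0.81 or 1.75-fold, Cavin3 at 0.56, Cav1, the caveolin 1 gene, at 0.49 and Dysf at 0.47. Of 7 barrier genes, Cldn5, the endothelial claudin gene, alone passed, at 0.60 or 1.52-fold, and Ocln, the occludin gene, differed by -0.34 (adjusted p = 0.177). Of 10 genes for binding partners of endocan, growth factors tied to it and enzymes of its sugar chain, 1 passed: Dse, an epimerase gene of the enzyme group needed to make dermatan sulphate, at 0.37 or 1.29-fold (limma, adjusted p = 0.0294). Fgf2, an inducer of endothelial growth, differed by 0.34 (adjusted p = 0.112).

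By the root mean square distance between centred log2 profiles over the 12 arrays, where 0 is an identical profile, the genes nearest to Apln were Lrrc8c (0.0658), Arrb1 (0.0862) and Medag (0.0862). Nearest to Aplnr were Lamc1 (0.115), Jag1 (0.117) and Col4a2 (0.126). Nearest to Cd34 were Lama2 (0.0883), Pilra (0.0912) and Anxa2 (0.0958), and nearest to Plvap were Rhoc (0.0724), C3ar1 (0.0817) and Cav1 (0.0819). Among the 5 genes, Apln and Plvap were closest, at 0.125, and Aplnr and Esm1 farthest, at 0.394. All these profiles share the group and set differences of the same arrays.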

How the data were processed

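RNA of islet pools was read on 12 Affymetrix mouse gene arrays. The authors deposited log2 intensities for each transcript cluster, credited in the submitters' processing notes to RMA in Affymetrix Expression Console. Versions and scan batches, and whether the arrays were normalized as 1 set, were not given in the sources used here. The study speaks of 2 independent profiling experiments, but no label assigns an array to either, so whether replicates 1 to 3 and 4 to 6 are these experiments is unknown. RMA compresses weak signals. Of 35556 clusters, 21789 carried a single symbol in the platform annotation, and the brightest by mean was kept for each of 999 genes with several, leaving 19938. List genes without such a cluster were not analysed here.

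Groups came from the labels. R 4.3.3 and limma 3.58.1 (lmFit, eBayes, two-sided, no covariates) compared 6 with 6 arrays, with Benjamini-Hochberg adjustment over all genes, threshold 0.05. Differences from marker means were tested by exact two-sided permutation over 924 splits. Code for limma was tested on simulated data first. The 5 genes and the lists were chosen with earlier results of these data known. Named are the 5 genes, up to 4 of the largest called differences per list (or the largest uncalled where fewer than 2 passed), all genes of the apelin ligand, receptor coupling and Cd34 family lists, and the 3 nearest profiles. Some genes that were not called are named as well, among the fibroblast, lymphatic and pan-endothelial markers, the stalk genes and the apelin regulators and targets. Alternatives tried were other scalings, filters, blocks, summaries of clusters, each set alone, another marker mean and leaving out each array.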

Additional observations from a re-analysis of the deposited data

How the results depend on the processing

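Apln, Aplnr, Cd34 and Plvap were called higher in all 23 alternatives, with log2 differences of 0.39 to 0.49 for Apln, 0.71 to 0.83 for Aplnr, 0.72 to 0.85 for Cd34 and 0.39 to 0.48 for Plvap and adjusted p-values of at most 0.0357 (limma, or the methods' t-test as 1 alternative). Esm1 ranged between 0.14 and 0.28 and passed only in replicates 4 to 6 alone, at 0.26. Against the mean of Pecam1 and Cdh5, values relative to the endothelium were -0.23 for Apln and -0.24 for Plvap, both reversed, 0.092 for Aplnr and 0.11 for Cd34, both no longer past the threshold, and -0.47 for Esm1, now past it. Same-numbered arrays deviated together in 5 of 6 numbers (correlation over 0.1), or in 2 of 6 once set means were removed, 1 stood at 0.028 and 2 of 6 arrays correlated best with their own number, so the numbers were not taken as pairs. With the replicate number as a block, differences kept their size and no call of the 5 genes changed (limma). Aplnr at 0.40 and Cd34 at 0.42 relative to the endothelium (exact sign-flip permutation, adjusted p = 0.0781 for both) and Cd34 at -0.14 relative to fibroblasts (exact p = 0.0625) then missed the threshold, in a test of 64 flips whose smallest p is 0.0312. Over all genes, 708 were higher and 189 lower without a block; 467 were higher without dim genes (fewer tested) and 1172 with the set as a block; 449 were lower with the replicate block, 547 with the set block, 66 in replicates 1 to 3 and 110 without angiogenic replicate 6. Of the pan-endothelial markers, 11 were higher over all arrays 7 in replicates 1 to 3 alone and 13 in replicates 4 to 6 alone. The cause was not tested. Cd34 relative to the median fibroblast marker, chosen after seeing the data, was -0.67, where the median can be a different gene on each array. The number of arrays limits precision.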

Other observations

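Markers of hormone cells did not share the rise of vessel genes. Of 9 measured beta cell markers, 0 were higher and 1 was lower: Ucn3, a peptide gene of mature beta cells, with a log2 difference of -0.25 (limma, adjusted p = 0.0285). Nkx6-1, a beta cell transcription factor gene, differed by -0.23 (adjusted p = 0.0566). Of 7 measured markers of other islet cells, 3 were lower and 0 higher: Sst, the somatostatin gene of delta cells, at -0.74, Pyy at -0.56 and Gcg, the glucagon gene of alpha cells, at -0.26. Their mean was 9.98 to 10.3 in angiogenic pools and 10.4 to 10.5 in non angiogenic pools, so the groups did not overlap. Of 5 measured lymphatic markers 1 was higher, Pdpn at 0.24 (adjusted p = 0.0426), and Flt4, a VEGF-C receptor gene that is also on the tip cell list, differed by 0.42 (adjusted p = 0.0791). Lyve1 at -0.16, Reln at -0.089 and Prox1 at -0.050 went the other way without passing. The median of the lymphatic markers was -0.050. Of 4 measured ductal markers 0 passed, the largest difference being 0.059 for Krt7, and of 2 measured erythroid markers 0 passed, with Alas2 at 0.45 (adjusted p = 0.152). Only 1 of the 2 erythroid differences was positive, and their median was 0.22.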
